A study of Mus musculus with 12 samples.

Results

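The comparison described here asks how the transcriptional response of naive CD8 T cells to 24 h of stimulation differed between wild-type and Ikaros-Zn4-/- mice. For each gene it takes the change from 0 to 24 h in Ikaros-Zn4-/- cells and subtracts the change in wild-type cells, on a log2 scale. The 8 libraries that enter this difference are those taken at 0 h and 24 h, out of 12 in the series. They form 4 groups with 2 libraries each: wild type (WT) unstimulated, WT at 24 h, homozygous Ikaros-Zn4-/- (Zn4) unstimulated and Zn4 at 24 h. All mice were on the C57Bl/6 background, 6 weeks old and labelled female. Splenocytes were depleted of other cells with a naive CD8 T cell kit, and CD8+ CD62Lhi CD44lo/- cells were then sorted. They were lysed at once or after culture on plate-bound antibodies against CD3 and CD28, the signalling chains and the main costimulatory receptor of the T cell. The labels do not say what the Zn4 allele changes, whether cells of several mice were pooled, or whether the libraries of a group came from separate mice. The p-values below therefore measure the spread between libraries, which may be technical. The sex-linked transcripts given near the end show different mice for the WT libraries at 12 h. For Zn4 at 12 h, the second library held transcripts of both sexes and the first of 1 sex, so their mice also differed in part. These transcripts do not separate mice at 0 h or 24 h. The 4 libraries taken at 12 h do not enter the difference itself, though they enter the estimate of its spread. They serve below as measurements at another time.

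Ikaros, encoded by Ikzf1, is a zinc finger protein of lymphocytes that binds DNA and recruits chromatin remodelling and deacetylase complexes such as NuRD, and it is best known for keeping genes silent in developing and mature lymphocytes. When a naive CD8 T cell is triggered through its antigen receptor together with CD28, it shuts down the genes of the resting state, grows and divides, and turns on cytokines, granzymes and adhesion molecules. Which of these genes come on, and how far the resting genes go down, depends on signal strength, cytokines such as interleukin-2, and repressors that act on single loci.

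Expression was given as RPKM, reads scaled by exon length and library size, and differences below are on the log2(RPKM + 1) scale, which understates the change of genes near or below 1 RPKM. A gene was called when its Benjamini-Hochberg adjusted p from limma was below 0.05. The table lists 12885 gene symbols, of which 12726 were tested. The 8 libraries held 24263907 to 28341272 reads, of which 73.8% to 76.3% fell in the listed genes at 0 h and 85.0% to 86.1% at 24 h. At these depths 3 reads in a transcript of 2 kb correspond to at most 0.0618 RPKM, and such limits cover counting error only. Ikzf1 itself read 90.9 and 115 RPKM in WT at 0 h, 115 and 117 in WT at 24 h, 129 and 137 in Zn4 at 0 h and 136 and 139 in Zn4 at 24 h. Its response did not differ by a called amount (difference -0.13, SE 0.15, adjusted p = 0.659), and a gene-level value of this kind does not check which allele a library carries.

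The sorted cells carried the transcripts of their label. Cd8a, the alpha chain of the CD8 coreceptor, read 172 to 263 RPKM over the 8 libraries. The summed level of the 10 CD8 T cell markers lay between 1782 and 2252 RPKM. Of 10 B cell markers, Cd79b alone had a value analysed here, at 1.11 to 6.62 RPKM. Cd163l1, a scavenger receptor found on gamma-delta T cells and one of 4 measured markers of NK and gamma-delta T cells, was at 33.6 and 34.6 RPKM in Zn4 at 0 h and at or below 0.543 RPKM in the other 6 libraries. The other 3 measured markers of that list, Tcrg-C1, Tcrg-C2 and Klri2, were at most at 2.43 RPKM in each of the 8 libraries, and the part of such cells in any result was not tested. Itgam, one of 2 measured myeloid markers, was at 1.04 and 1.16 RPKM in Zn4 at 0 h and at most at 0.190 in the other 6 libraries. The sum of both myeloid markers did not follow Itgam. It was 1.4 and 2.65 RPKM in WT and 2.93 and 6.62 in Zn4 at 0 h. At 24 h it was 6.3 and 5.84 in WT and 2.99 and 5.28 in Zn4.

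The response differed between genotypes for 1048 of 12726 genes (8.24%). It was higher in Zn4 for 494 (3.88%) and lower for 554 (4.35%), and 488 of the 1048 differed by at least 1 on the log2 scale, a 2-fold difference. Over all tested genes the median difference was -0.01. By comparison, 9409 genes (73.9%) were called between 0 and 24 h in WT and 9509 (74.7%) in Zn4, where 6194 (48.7%) were higher at 24 h. Leaving out a single library moved the count to between 325 and 1524. It fell to 340 or 325 without either WT 24 h library, to 566 without the first Zn4 24 h library and to 677 without the second Zn4 0 h library, and fitting the 8 libraries alone gave 550, of which 519 were among the 1048 with the same sign.

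**Figure D1:**
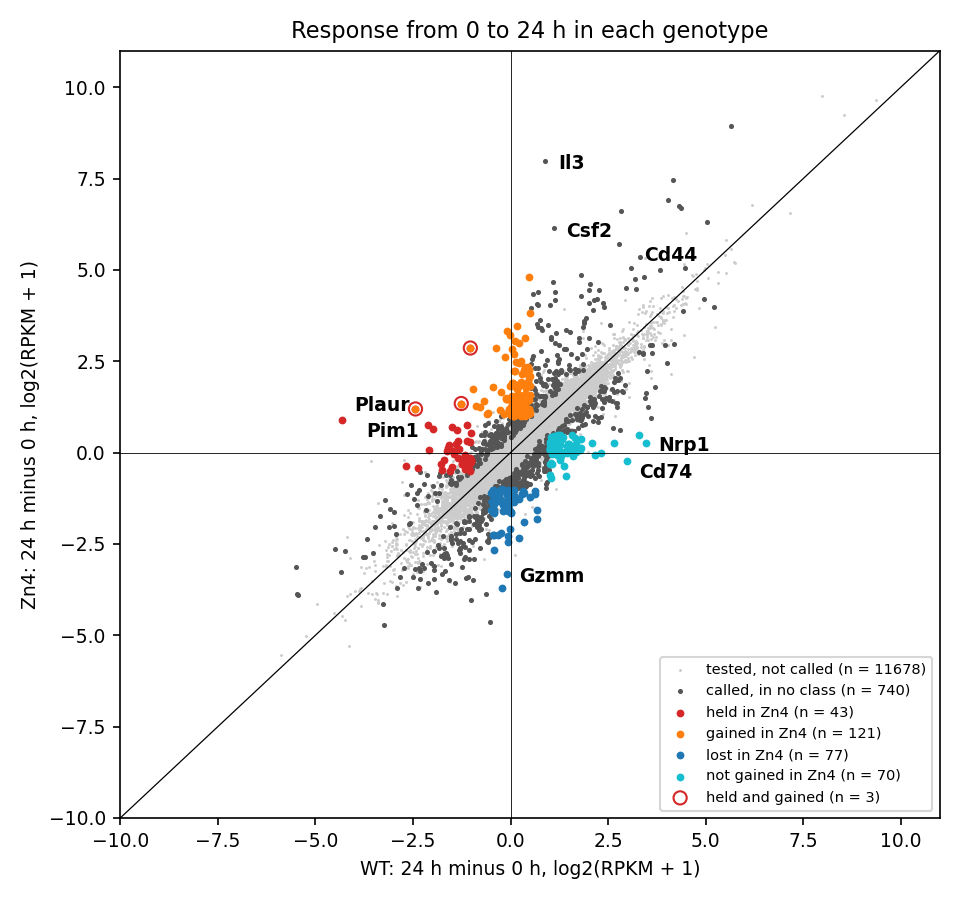
Change from 0 to 24 h in WT (horizontal axis) and in Zn4 (vertical axis) for each tested gene, both on the log2(RPKM + 1) scale; the diagonal marks equal responses. Il3 and Csf2 lie far above the diagonal, Plaur and Pim1 fell in WT and did not fall in Zn4, and Gzmm, Nrp1 and Cd74 lie below the diagonal.

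The called genes were read in 4 classes by how each genotype responded. In 43 genes WT fell by at least 1 while Zn4 stayed above -0.50, called here held in Zn4. In 77 genes Zn4 fell by at least 1 while WT stayed above -0.50, called lost in Zn4. In 121 genes Zn4 rose by at least 1 while WT rose by less than 0.50, called gained in Zn4, and in 70 genes the reverse was true, called not gained in Zn4. The classes overlap in 3 genes, Lmna, Ndrg1 and Rhob, which fell in WT and rose in Zn4. Both classes on the higher side, and both on the lower side, were chosen by the responses themselves, so their sizes describe the genes and are not a test.

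These classes arose in unlike ways at rest and at 24 h. Of the 121 genes gained in Zn4, 112 differed between genotypes at 24 h alone, where they were higher in Zn4. Of the 43 held genes, 27 were higher in Zn4 at 24 h alone, and 10 were lower in Zn4 at 0 h alone, so that WT fell to a level that the Zn4 cells already had. The 77 lost genes were split: 36 were lower in Zn4 at 24 h alone, 25 were higher in Zn4 at 0 h alone and 10 were higher at both times. Of the 70 genes not gained, 48 were lower in Zn4 at 24 h alone and 12 were higher in Zn4 at 0 h alone. For scale, 479 tested genes (3.76%) were called higher in Zn4 at 0 h and 249 (1.96%) lower, against 1196 (9.4%) higher and 1268 (9.96%) lower at 24 h. The classes were chosen from these same libraries, so a higher level in Zn4 at 24 h is close to built into the gained class. Genes silent in WT could also enter that class through Zn4 alone. The counts by class therefore describe the genes and are not a test against these shares.

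**Figure D2:**
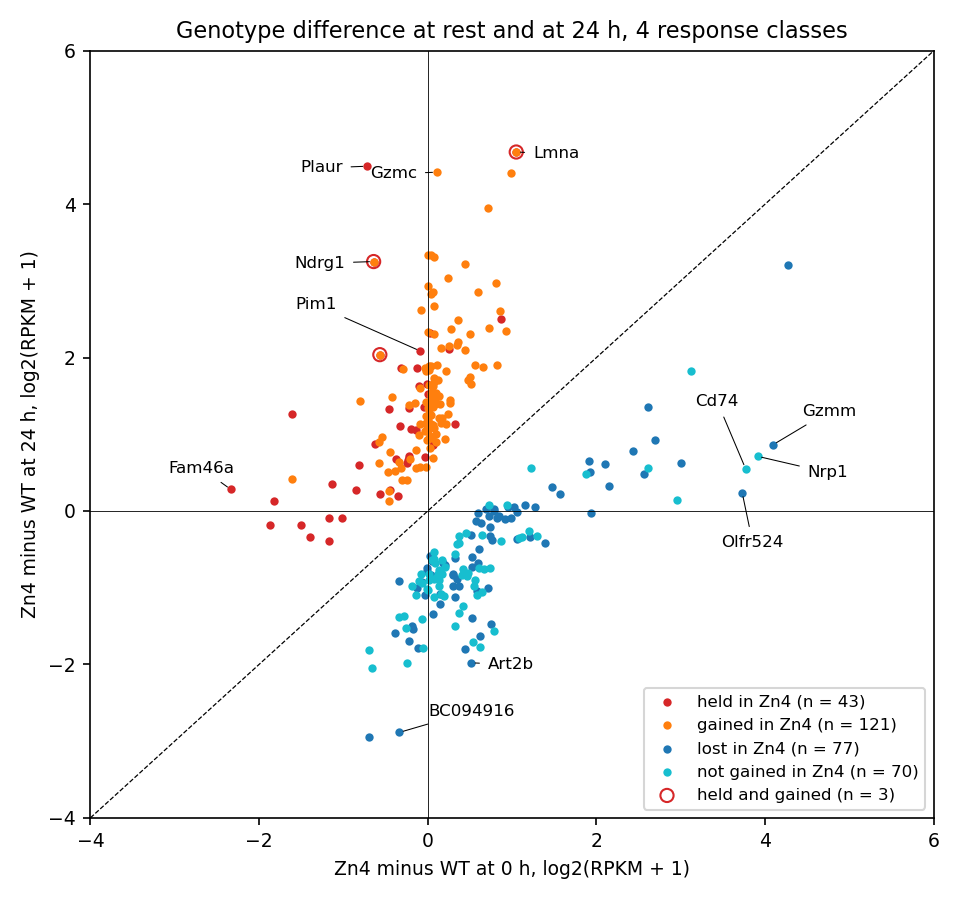
Difference between Zn4 and WT at 0 h (horizontal axis) and at 24 h (vertical axis), log2(RPKM + 1), for the genes of the 4 response classes; genes above the dashed diagonal had the higher response in Zn4. Gained genes rise in a column above 0 at rest, whereas Gzmm, Cd74, Nrp1 and Olfr524 sit at the right, higher in Zn4 at rest and close to WT at 24 h.

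Among the genes held in Zn4, Plaur had the greatest difference. Plaur encodes the receptor for urokinase, which focuses protein cleavage at the cell surface and takes part in adhesion. It read 45.7 and 51.4 RPKM in WT at 0 h, 1.15 and 1.87 in WT at 24 h, 26.7 and 31.4 in Zn4 at 0 h, and 96.8 and 31.1 in Zn4 at 24 h. Both WT 24 h libraries were far below every other library of the comparison, and of the Zn4 24 h libraries the first lay well above the resting Zn4 range and the second within it. The difference in response was 5.22 (SE 0.58, adjusted p = 0.00162). At 12 h the Zn4 libraries held 5.48 and 5.67 RPKM against 0.826 and 1.502 in WT, so Plaur also went down in Zn4 at first and was higher again at 24 h.

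Pim1, a serine/threonine kinase of growth and survival that cytokine signals induce, kept its level in Zn4 at all 3 times. It stood at 114 and 119 RPKM in WT at rest and 116 and 104 in Zn4 at rest, with the genotypes overlapping. At 24 h it was at 27.6 and 25.7 RPKM in WT and at 152 and 88.9 in Zn4, and the groups were apart. The difference in response was 2.17 (SE 0.30, adjusted p = 0.00417). At 12 h the 2 Zn4 libraries, at 86.5 and 92.9 RPKM, lay above the WT libraries at 31.8 and 41.6.

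Lmna, the gene of the A-type nuclear lamins, fell in WT from 4.56 and 7.90 RPKM to 0.300 and 0.299, and in Zn4 went from 10.3 and 17.8 to 60.02 and 17.2. At 12 h both genotypes were at most at 0.470 RPKM, so the value in Zn4 at 24 h was a return from a low level. The difference of 3.63 (adjusted p = 0.0133) lost its call without either WT 24 h library and when the 8 libraries were fitted alone, where the highest adjusted p was 0.0548. Ndrg1, a gene named for its regulation by the Myc family and induced by low oxygen, went from 5.29 and 7.38 to 2.71 and 2.40 RPKM in WT and from 2.63 and 4.96 to 52.7 and 20.3 in Zn4. Its groups did not overlap at 24 h, and its difference was 3.89 (SE 0.53, adjusted p = 0.00391). Rhob, a small GTPase of the cytoskeleton and of membrane traffic, ended at 2.71 and 2.29 RPKM in WT and 20.03 and 8.77 in Zn4, with a difference of 2.61 (adjusted p = 0.0163) that was lost under the same 3 settings as that of Lmna.

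Fam46a showed the other way in which a gene came to be held. It read 8.07 and 6.12 RPKM in WT at rest and 0.643 and 0.546 in Zn4 at rest, and at 24 h 1.01 and 1.06 in WT and 2.60 and 0.702 in Zn4. The genotypes overlapped at 24 h and were apart at rest, and the difference in response was 2.62 (adjusted p = 0.0057). The unnamed transcript 4833407H14Rik was lower in Zn4 at rest (difference -1.61, adjusted p = 0.0259) and higher in Zn4 at 24 h (1.27, adjusted p = 0.0308).

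The given marker Cd44 was not held but rose further in Zn4. Cd44 is the hyaluronan receptor whose surface level separates naive from activated T cells, and its low protein level was part of the sort. It read 1.23 and 1.39 RPKM in WT and 0.535 and 0.99 in Zn4 at rest, then 19.2 and 18.2 in WT and 69.2 and 47.8 in Zn4 at 24 h. The resting Zn4 libraries lay below those of WT and the 24 h Zn4 libraries above them, with a difference in response of 1.97 (SE 0.28, adjusted p = 0.00467). At 12 h the Zn4 libraries, at 9.16 and 8.96 RPKM, were not above WT at 10.4 and 14.8, so the higher level was seen at 24 h.

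**Figure D3:**
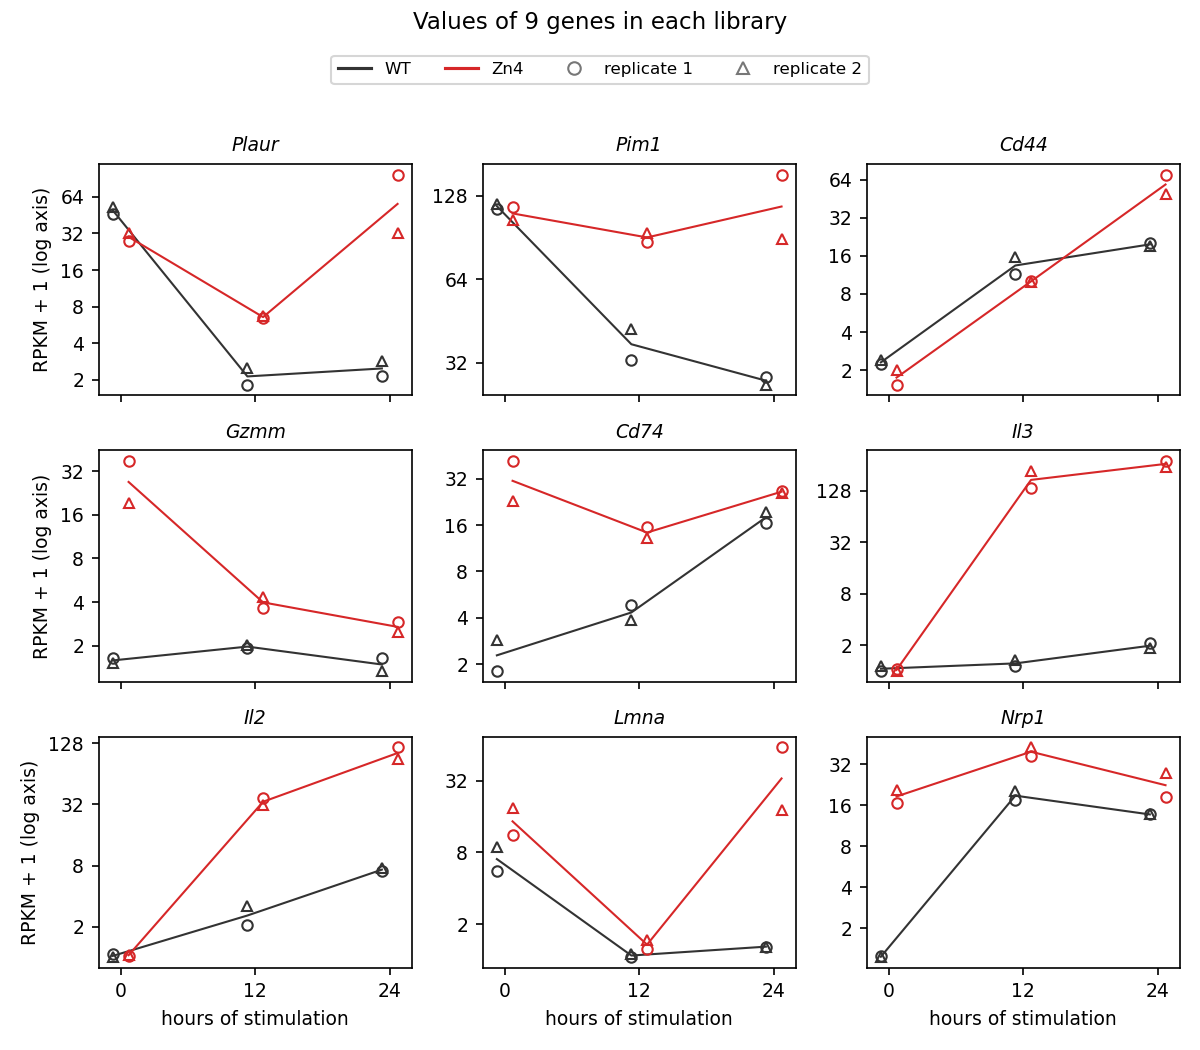
RPKM + 1 on a log axis at 0, 12 and 24 h for 9 genes in each of the 12 libraries; circles and triangles are replicates 1 and 2, lines join the group means on the log scale, black is WT and red is Zn4. Plaur and Lmna dipped at 12 h in Zn4 before the 24 h values, Il3 and Il2 were already apart at 12 h, and in Plaur, Pim1 and Lmna the first Zn4 24 h library is the higher of the pair.

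Cytokine genes were called higher more often than lower. For this and each later count of a list or gene family, the shares over all tested genes were 3.88% higher and 4.35% lower. Of 13 measured cytokine genes, 8 were called higher in response in Zn4 and 1 lower, with a median difference of 1.97 against -0.01 for all tested genes. The cytokine list names 25 genes, and only those that reached a mean of 1 RPKM in at least 1 group have values. A gene silent in WT could thus be counted through Zn4 alone. Il1a, for example, was at most at 0.304 RPKM in WT and at 4.87 and 13.4 in Zn4 at 24 h. Such shares and medians, here and for the other lists and families, describe the genes and are not a test. Il3, encoding interleukin-3, a growth factor for myeloid cells and mast cells, was at or below 0.130 RPKM in all 4 resting libraries. At 24 h it reached 1.11 and 0.841 RPKM in WT and 283 and 240 in Zn4, a difference in response of 7.10 (SE 0.28, adjusted p = 8.73e-06), the largest of all tested genes. It was at 135 and 212 RPKM in Zn4 at 12 h, when WT was at 0.131 and 0.333.

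Its neighbour Csf2, encoding the granulocyte-macrophage growth factor GM-CSF, was near 0 at rest in both genotypes. It reached 1.29 and 1.23 RPKM in WT and 81.9 and 58.6 in Zn4 at 24 h (difference 5.03, SE 0.40, adjusted p = 0.000262). Unlike Il3, Csf2 was still at 3.51 and 5.77 RPKM in Zn4 at 12 h. Both genes lie on chromosome 11, Csf2 at positions 54247271 to 54249667 and Il3 at 54265303 to 54267277 of GRCm38, and the next tested gene on that side, Acsl6, was called in the same direction.

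Il2, the growth factor of activated T cells, was at 6.05 and 6.54 RPKM in WT and 116 and 88.6 in Zn4 at 24 h, from at most 0.0683 at rest. Ifng, the main cytokine of CD8 effector cells, was at 18.7 and 18.5 RPKM in WT and 224 and 278 in Zn4 at 24 h. The differences in response were 3.79 (adjusted p = 0.000178) and 3.30 (adjusted p = 0.000368). In a fit with limma-voom on read counts recovered from the RPKM values, called the count-based fit below, the adjusted p was 0.166 for Il2 and 0.372 for Ifng, while Il3 (0.0213) and Csf2 (0.0387) kept their calls. At 24 h the genotypes were apart in all 4 of these genes.

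Lif and Osm, cytokines of the interleukin-6 family, also responded more in Zn4. Lif reached 3.81 and 4.63 RPKM in WT and 27.2 and 23.2 in Zn4 (difference 1.97, adjusted p = 0.0102). Its call was lost with a pseudocount of 0.1 (difference 1.25, adjusted p = 0.231), in the count-based fit (0.67, adjusted p = 0.708) and without the first WT 24 h library (adjusted p = 0.0518). Osm fell or stayed in WT, from 3.42 and 2.46 to 1.96 and 2.64 RPKM, and rose in Zn4 from 1.85 and 2.01 to 9.83 and 6.83 (difference 1.91, adjusted p = 0.0049). Further members, picked after their values were seen, were Lta, encoding lymphotoxin alpha, at 41.0 and 42.0 RPKM in WT and 173 and 214 in Zn4 at 24 h, and Il16, the one gene of the list called lower, at 7.0 and 6.91 in WT and 1.94 and 2.54 in Zn4. Tnf, with 19.8 and 31.9 RPKM in WT and 82.4 and 97.3 in Zn4 at 24 h, was also higher at rest in Zn4, at 10.9 and 16.1 against 5.86 and 5.99. Its difference in response was 0.75 and was not called (adjusted p = 0.414).

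Chemokine genes followed with 3 of 8 higher and none lower (median 1.10). Ccl1, a ligand of CCR8, peaked earlier than the cytokines: in Zn4 it was at 94.3 and 165 RPKM at 12 h and 8.80 and 26.9 at 24 h, against 0.731 or less in each WT library. Its difference at 24 h was 3.34 (adjusted p = 0.011), and the call was lost in the count-based fit and without the second WT 24 h library. Ccl9 and Ccl22 were called with adjusted p = 0.0257 and 0.0431 and lost the call under 9 of 19 and 10 of 18 alternative settings. Il23a, a subunit of interleukin-23 and one of the genes gained in Zn4, stood at 0.121 and 0.130 RPKM in WT and 17.1 and 6.21 in Zn4 at 24 h (difference 3.30, adjusted p = 0.00423, lost in the count-based fit at 0.217).

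Among granule and killer genes the calls went both ways, 4 higher and 4 lower of 21 (median 0.28). Gzmb, the granzyme that triggers death of target cells, rose from 0.951 to 1.72 RPKM at rest to 109 and 114 in WT and 1561 and 836 in Zn4 (difference 3.28, SE 0.51, adjusted p = 0.00644, lost in the count-based fit at 0.108). Gzmc reached 0.397 and 0.453 RPKM in WT and 39.9 and 21.7 in Zn4 (difference 4.31, adjusted p = 0.00995, also lost there), and since it belongs to a cluster of near-identical granzyme genes its reads may be shared.

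Gzmm, the granzyme of innate-like and killer lymphocytes, behaved in the opposite way. It was at 0.637 and 0.528 RPKM in WT at rest and at 36.8 and 18.3 in Zn4 at rest. At 24 h it was at 0.644 and 0.336 in WT and 1.91 and 1.5 in Zn4, so the genotypes were far apart at rest and close at 24 h. The difference in response was -3.23 (SE 0.37, adjusted p = 0.00194), with most of the fall done by 12 h, when Zn4 held 2.63 and 3.36 RPKM. Gzma had the same order at a lower level, 0.40 and 0.0931 in WT and 5.22 and 2.62 in Zn4 at rest, and at most 0.0804 at 24 h (difference -1.96, adjusted p = 0.0439, lost under 11 of 18 alternative settings).

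Genes of the interleukin-2 receptor path were on the higher side for 9 of 24 and on the lower side for 2 (median 0.53). The 9 include Osm and Lif, counted also among the cytokines, and Pim1, which was given with the comparison. Il2ra, the high-affinity receptor chain, rose to 106 and 109 RPKM in WT and 214 and 174 in Zn4, and the difference in response of 0.59 was not called (adjusted p = 0.18). Bcl2l1, which protects activated T cells from death, rose to 36.3 and 39.6 RPKM in WT and 105 and 85.7 in Zn4 from 3.0 to 3.36 at rest (difference 1.27, adjusted p = 0.00189). Socs2, a feedback inhibitor induced by STAT5, reached 0.424 and 0.392 RPKM in WT and 3.77 and 4.77 in Zn4 (difference 1.79, adjusted p = 0.000591), and in the count-based fit the difference was 1.07 and not called (adjusted p = 0.376). Chosen after their values were seen, Stat5a was held in Zn4, at 22.8 and 22.1 RPKM in WT and 75.5 and 44.8 in Zn4 at 24 h from 37.6 to 48.2 at rest. Jak3 was lower in response in Zn4 (difference -1.37, adjusted p = 0.00304).

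The adhesion and cytoskeleton list had 8 higher and 5 lower of 29 (median 0.61). Anxa2, a membrane-binding annexin of the effector state, reached 4.74 and 5.05 RPKM in WT and 96.1 and 29.9 in Zn4 (difference 2.77, adjusted p = 0.0222), and lost its call under 5 alternative settings, among them either WT 24 h library left out. Nrp1, encoding neuropilin-1, a coreceptor for semaphorins and growth factors, was instead high in resting Zn4 cells. It read 0.245 and 0.221 RPKM in WT at rest, 12.7 and 12.7 in WT at 24 h, 15.6 and 19.7 in Zn4 at rest and 17.3 and 26.5 in Zn4 at 24 h. WT rose to near the level that Zn4 held from the start, and the difference in response was -3.20 (SE 0.26, adjusted p = 0.000308).

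Cd74 and the other genes of class II antigen presentation were among the most changed of the lower side. Of 5 tested, 4 were lower in response in Zn4 and 1, H2-Ob, higher (median -1.80). Cd74, the invariant chain that escorts class II molecules, was at 0.803 and 1.88 RPKM in WT at rest and at 40.9 and 22.0 in Zn4 at rest, and at 15.6 and 18.5 in WT and 25.7 and 25.1 in Zn4 at 24 h. As for Nrp1, WT rose toward a level that Zn4 already had, and the difference in response was -3.21 (SE 0.40, adjusted p = 0.00281).

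H2-DMa, a chain of the peptide exchange factor, was at 12.3 and 7.82 RPKM in WT and 27.6 and 27.0 in Zn4 at rest, and at 7.18 and 6.73 in WT and 4.38 and 5.61 in Zn4 at 24 h. H2-Oa and H2-Ob encode the chains of the H2-O heterodimer, which restrains that exchange factor, and they moved in opposite directions. H2-Oa was higher in Zn4 at rest (17.6 and 15.8 RPKM against 8.95 and 7.75) and lower at 24 h (0.357 and 1.01 against 3.39 and 3.09). H2-Ob was lower in Zn4 at rest, at 2.18 and 2.55 RPKM against 12.2 and 16.4, and at most 0.523 RPKM in all 4 libraries at 24 h. Its difference of 1.63 on this scale came from the resting level, was not called with a pseudocount of 0.1 (0.17, adjusted p = 0.902) and turned to -2.53 in the count-based fit, where the fall in proportion was the steeper one in Zn4 but not called (adjusted p = 0.239). The call of H2-DMa was lost without either WT 24 h library and without the first Zn4 24 h library. The B cell marker Cd79b was at 2.05 and 1.54 RPKM in WT and 1.55 and 1.11 in Zn4 at rest, where Cd74 was far higher in Zn4. Like Cd74, it rose in WT, to 6.62 and 6.53 RPKM at 24 h, and in Zn4 it ended at 1.56 and 1.73. It was itself called lower in response (difference -1.26, adjusted p = 0.0141, lost under 4 settings), and the part of B cells in these results was not tested.

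**Figure D4:**
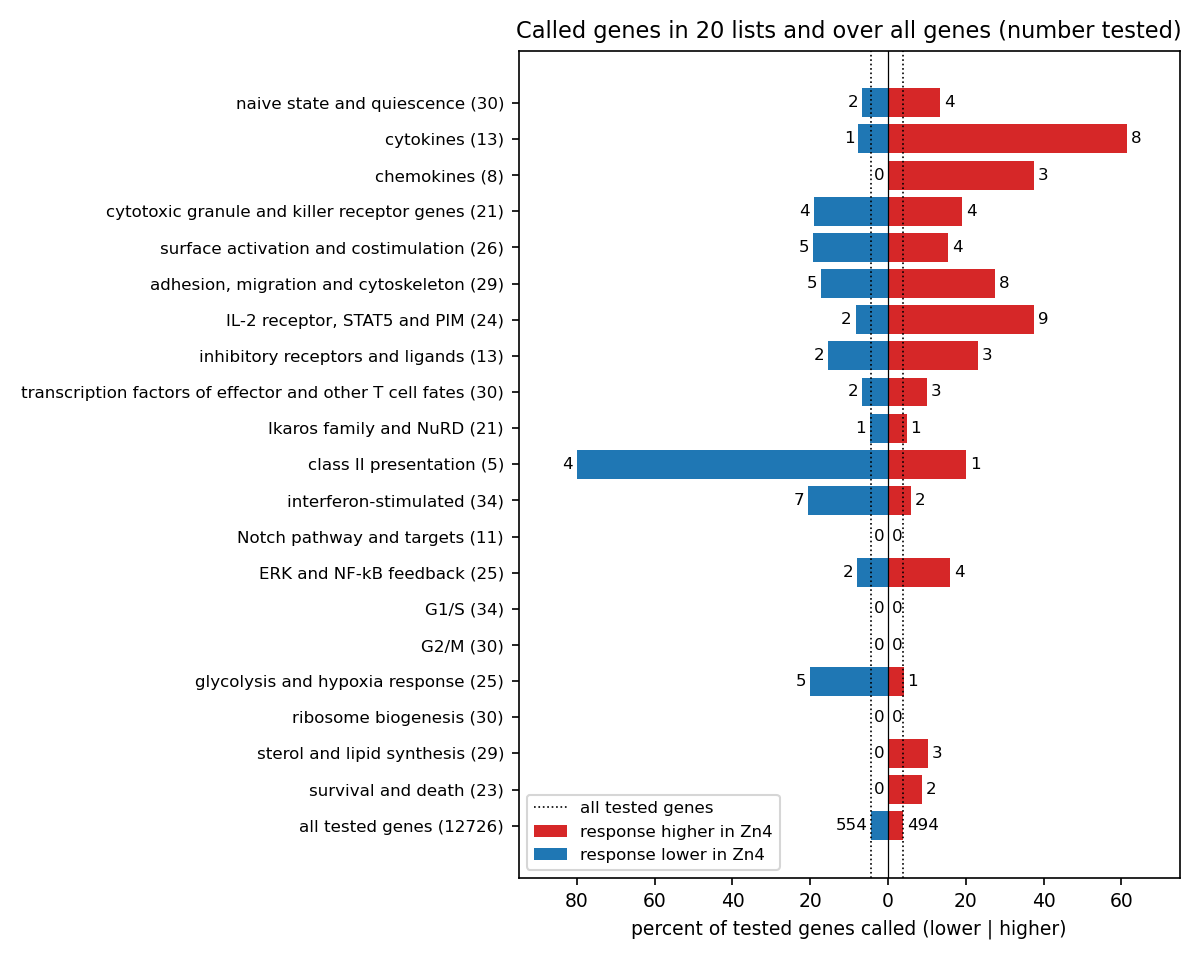
Share of tested genes in each of 20 lists whose 0 to 24 h response was called higher (right) or lower (left) in Zn4; numbers beside bars count genes, brackets give genes tested and dotted lines mark the shares over all tested genes. Cytokines stand out to the right with 8 of 13, class II presentation to the left with 4 of 5, and the G1/S, G2/M, ribosome biogenesis and Notch lists hold no called gene.

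Interferon-stimulated genes leaned to the lower side, 7 lower and 2 higher of 34 (median -0.43). Gbp2, a guanylate-binding protein, rose in WT from 17.6 and 27.8 to 280 and 283 RPKM, and in Zn4 from 44.3 and 52.8 to 80.5 and 112. Zn4 was above WT at rest and below it at 24 h, and the difference in response was -2.65 (SE 0.35, adjusted p = 0.00354). Gbp6 rose in WT, from 3.86 and 3.77 to 5.99 and 5.72 RPKM, and fell in Zn4, from 7.79 and 6.09 to 1.85 and 3.12 (difference -1.71, adjusted p = 0.00523). Iigp1, an immunity-related GTPase, was at 0.813 and 1.91 RPKM in WT and 14.3 and 19.7 in Zn4 at rest and reached 19.98 and 23.5 in WT and 18.0 and 31.8 in Zn4 (difference -2.81, adjusted p = 0.00538).

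Of 9 tested genes whose symbols start with Gbp, 7 were called lower in response and none higher, and their median response was 0.28 in WT and -1.5 in Zn4. Ifih1, a sensor of double-stranded RNA, was on the higher side, at 1.23 and 1.48 RPKM in WT and 8.19 and 15.5 in Zn4 at 24 h (difference 1.67, adjusted p = 0.0213), and lost its call under 6 alternative settings. Ifng itself was higher in Zn4 at 24 h, as given above, and the relation of its level to these genes was not tested.

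The CD3 complex, through which the antigen receptor signals, was called for each of its 4 chains, with 3 going one way and 1 the other. Cd3e read 143 and 165 RPKM in WT and 141 and 162 in Zn4 at rest. At 24 h it was at 245 and 239 in WT and 109 and 138 in Zn4, so the groups overlapped at rest and were apart at 24 h (difference -0.95, SE 0.17, adjusted p = 0.0112). Cd3g ended at 246 and 237 RPKM in WT and 88.0 and 128 in Zn4 (difference -1.13, adjusted p = 0.0119), and Cd3d at 209 and 205 in WT and 120 and 151 in Zn4 (difference -0.95, adjusted p = 0.00721). The calls of Cd3e and Cd3g were lost without either WT 24 h library, at adjusted p of at most 0.0556 and 0.0575, and that of Cd3d held under every alternative setting. All 3 chains were also lower in Zn4 at 12 h, with differences of -0.59, -1.07 and -0.69 for Cd3e, Cd3g and Cd3d. These genes are neighbours on chromosome 9.

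Cd247, the zeta chain, which lies elsewhere, was held in Zn4. It fell in WT from 43.1 and 48.9 to 14.8 and 14.6 RPKM and in Zn4 went from 32.3 and 34.1 to 46.4 and 32.3 (difference 1.79, SE 0.21, adjusted p = 0.00216). Cd28, the costimulatory receptor that one of the plate-bound antibodies engages, was named after its values were seen. It went from 121 and 71.4 to 91.0 and 94.5 RPKM in WT and from 141 and 103 to 42.1 and 51.4 in Zn4 (difference -1.35, adjusted p = 0.0376).

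Of 21 tested genes whose symbols start with Trbv, the variable segments of the T cell receptor beta chain, 12 were called lower in response and none higher, with a median response of 0.003 in WT and -0.74 in Zn4. Of 46 tested Trav segments of the alpha chain, none was called at an adjusted p below 0.05, with median responses of 0.10 in WT and -0.001 in Zn4. Segments of a family resemble each other, so reads may be divided among them.

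Genes of the naive state fell in both genotypes, and a few fell less in Zn4. In that list 4 of 30 were called higher and 2 lower in response, while the median response was -2.24 in WT and -2.53 in Zn4. Tsc22d3, encoding the glucocorticoid-induced leucine zipper, went from 141 and 95.0 to 1.79 and 1.37 RPKM in WT and from 120 and 101 to 18.2 and 7.26 in Zn4 (difference 2.36, adjusted p = 0.0174). Klf2, which maintains quiescence and lymph node homing, ended at 6.98 and 5.41 RPKM in WT and 20.4 and 11.2 in Zn4 from 229 to 324 at rest (difference 1.55, adjusted p = 0.0327). Il7r, the receptor for the survival cytokine interleukin-7, ended at 3.10 and 2.42 in WT and 8.79 and 7.45 in Zn4 (difference 1.60, adjusted p = 0.0356). These 3 calls were lost under 4, 9 and 6 of 19 alternative settings. Rgs10, a regulator of G protein signalling, fell far more in Zn4, to 11 and 17.3 RPKM against 44.1 and 45.6 in WT (difference -2.25, adjusted p = 0.00202).

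Among transcription factors, 3 of 30 were higher and 2 lower (median 0.24). Batf3, an AP-1 family factor, was at 0 in all 4 resting libraries and at 0.521 and 0.694 RPKM in WT and 18.2 and 13.8 in Zn4 at 24 h (difference 3.39, adjusted p = 0.00126). Zbtb32, a zinc finger repressor of activated lymphocytes, reached 21.8 and 16.6 in WT and 176 and 126 in Zn4 (difference 2.86, adjusted p = 0.00126), and both of these calls were lost in the count-based fit. Batf3 was also a dendritic cell marker on the lists used, and Zbtb46, the other one measured, reached 4.43 and 1.98 RPKM in Zn4 at 24 h against 0.494 and 0.523 in WT. The cells were sorted CD8 T cells, 4 further dendritic markers had no value analysed here, and the part of such cells was not tested. Tox, a factor linked to chronic stimulation, stayed at 5.16 and 5.49 RPKM in WT and fell to 0.903 and 1.48 in Zn4 (difference -1.37, adjusted p = 0.00467). Prdm1, encoding Blimp-1, was named after its values were seen: it was higher in Zn4 at rest, at 4.51 and 2.88 RPKM against 1.10 and 0.394, and at most at 0.0925 RPKM in all 4 libraries at 24 h. Myc did not differ by a called amount (difference -0.59, adjusted p = 0.457), reaching 176 and 177 RPKM in WT and 243 and 186 in Zn4.

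Feedback regulators of ERK and NF-kB signalling were called higher in 4 of 25 and lower in 2 (median 0.35). Spry2, an inhibitor of ERK signalling that growth signals induce, rose from 0.393 and 0.274 to 16.2 and 16.2 RPKM in WT, and in Zn4 from 9.01 and 9.35 to 34.2 and 34.4. Zn4 was above WT at both times and rose by less, with a difference in response of -1.90 (SE 0.15, adjusted p = 0.00027). Nfkbia, the inhibitor of NF-kB, fell from 404 and 356 to 70.8 and 76.7 RPKM in WT and from 439 and 385 to 272 and 148 in Zn4 (difference 1.32, adjusted p = 0.0472, lost under 11 of 19 alternative settings). Nfkbib stayed in WT, at 39.1 and 36.2 RPKM at 24 h, and reached 111 and 75.2 in Zn4 (difference 1.22, adjusted p = 0.0102, lost without the second WT 24 h library). Dusp5, a nuclear ERK phosphatase, reached 18.6 and 19.1 RPKM in WT and 87.9 and 60.3 in Zn4 (difference 1.27, adjusted p = 0.0211, lost under 6 settings).

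Surface molecules of activation and inhibition were split. Of 26 activation and costimulation genes, 4 were higher and 5 lower (median -0.01), and of 13 inhibitory genes 3 were higher and 2 lower (median -0.49). Cd80 and Cd83, costimulatory molecules, reached 1.16 and 1.35 and 16.7 and 17.7 RPKM in WT and 13.7 and 5.25 and 70.7 and 47.1 in Zn4, and their calls were lost under 6 and 9 settings. Ly6a, an antigen induced by interferon, was called lower at an adjusted p of 0.0499 that was lost under 12 settings. Cd200, an inhibitory ligand, rose to 50.4 and 51.6 RPKM in WT and 128 and 133 in Zn4 (difference 1.28, adjusted p = 0.00241, lost in the count-based fit). Nt5e, the ecto-enzyme CD73 that makes adenosine, fell from 10.1 and 7.78 to 3.84 and 4.19 RPKM in WT and from 9.47 and 9.53 to 0.687 and 1.21 in Zn4 (difference -1.46, adjusted p = 0.00643). Havcr2, encoding TIM-3, was at most at 0.0648 RPKM in WT at 24 h and at 1.55 and 1.10 in Zn4, and Lair1 was higher in Zn4 at rest, at 1.62 and 1.36 against 0.426 and 0.457; both calls were lost under 8 or 9 settings.

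Within the Ikaros family and NuRD, 1 of 21 was called higher and 1 lower (median -0.10), a share near that of all genes. Chd3, a helicase of NuRD, fell from 74.3 and 85.3 to 43.7 and 43.9 RPKM in WT and from 81.0 and 85.5 to 19.2 and 23.6 in Zn4 (difference -1.07, SE 0.16, adjusted p = 0.00488). Mbd2, a NuRD subunit that reads methylated DNA, was at 45.8 and 39.8 RPKM in WT and 27.4 and 27.3 in Zn4 at rest (difference in response 0.51, adjusted p = 0.0285, lost under 8 settings). None of 11 Notch pathway genes was called by limma (median -0.09). Among sterol and lipid genes 3 of 29 (10.3%) were higher and none lower (median 0.24), near the 8.24% called over all tested genes. Hmgcs1, the first committed enzyme of sterol synthesis, went from 25.9 and 24.1 to 34.8 and 35.3 RPKM in WT and from 16.7 and 19.0 to 49.8 and 50.5 in Zn4 (difference 0.97, adjusted p = 0.0085). Srebf2, its activator, followed with 0.73 (adjusted p = 0.0182, lost under 4 settings, among them either WT 24 h library left out). Fads2, a fatty acid desaturase, had a difference of 1.32 (adjusted p = 0.0091), which was not called with a pseudocount of 0.1 (adjusted p = 0.314) or in the count-based fit (adjusted p = 0.708). Of 23 survival and death genes 2 (8.7%) were higher and none lower, near the 8.24% called over all tested genes. They were Bcl2l1, as given above, and Tnfrsf10b, a death receptor. Tnfrsf10b was at 10.01 and 10.9 RPKM in WT and 17.5 and 13.7 in Zn4 at 24 h (difference 1.30, adjusted p = 0.0317, lost under 8 settings).

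In the glycolysis list 5 of 25 were lower and 1 higher in response (median -0.30). Pfkl, the liver-type phosphofructokinase, rose in WT to 41.6 and 42.1 RPKM and in Zn4 to 25.6 and 24.6 from 15.4 to 17.1 at rest (difference -0.80, SE 0.10, adjusted p = 0.00343). Pfkm, the muscle-type enzyme of the same step, rose to 6.70 and 6.79 in WT and ended at 1.98 and 2.65 in Zn4 (difference -1.07, adjusted p = 0.0194), and Gpi1, which acts one step earlier, reached 54.1 and 56.4 in WT and 41.3 and 43.3 in Zn4 (difference -0.65, adjusted p = 0.0127). Both calls were lost without either WT 24 h library, and that of Pfkm also with a pseudocount of 0.1, without the first Zn4 0 h library and without the first Zn4 24 h library. Pfkp, the platelet-type enzyme, was the one called higher, at 25.0 and 26.4 RPKM in WT and 36.6 and 35.8 in Zn4, and was named after its values were seen.

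The lists of cell growth and division showed no called difference. Of 34 G1/S genes, 30 G2/M genes and 30 ribosome biogenesis genes, none was called by limma, with median differences of -0.14, 0.03 and -0.01. Mki67, the proliferation marker, named after its values were seen, was at 50.5 and 61.7 RPKM in WT and 51.4 and 66.1 in Zn4 at 24 h, from at most 0.726 at rest. A difference that misses the threshold here can still exist: in simulated data built on these libraries, 25% of 2-fold and 96% of 4-fold differences in response were called. That simulation changed 100 well-expressed genes at each size, with an assumed log2 SD of 0.2 between libraries. The shares called in the real data may therefore be unlike these.

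Several of the lowest differences came from genes that were higher in resting Zn4 cells and low in both genotypes at 24 h. Cd163l1, given above, fell in Zn4 from 33.6 and 34.6 to 0.305 and 0.510 RPKM, a difference in response of -4.13 (SE 0.21, adjusted p = 3.08e-05). Its neighbour Olfr524, on chromosome 7, fell from 12.8 and 16.4 to 0.295 and 0.0757 RPKM in Zn4, and was at most 0.232 in WT (difference -3.49, adjusted p = 6e-05). Pyroxd2 fell from 17.7 and 19.8 to 0.0877 and 0.308 RPKM in Zn4 and from 1.29 and 0.957 to 0.0264 and 0.0679 in WT. Ctnnd2, encoding a catenin of cell contacts, fell from 7.64 and 7.72 to 0.423 and 0.792 RPKM in Zn4 and was at most 0.104 in WT. For these 4 genes the genotypes were widely apart at rest and the calls were lost in the count-based fit, in which Cd163l1 had an adjusted p of 0.113.

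Others did not differ by a called amount at rest and ended lower in Zn4. BC094916, a gene of the interferon-inducible HIN-200 family, was at 6.58 and 7.53 RPKM in WT and 5.98 and 4.80 in Zn4 at rest, and at 8.18 and 8.45 in WT and 0.141 and 0.389 in Zn4 at 24 h (difference -2.55, SE 0.19, adjusted p = 0.000178). Pyhin1, of the same family, ended at 12.9 and 14.2 RPKM in WT and 1.03 and 1.79 in Zn4 from 23.6 to 32.0 at rest (difference -2.51, adjusted p = 0.00121). Art2b, an ADP-ribosyltransferase of T cells, ended at 7.34 and 8.31 RPKM in WT and 0.629 and 2.07 in Zn4 (difference -2.49, adjusted p = 0.0102, lost without the second WT 24 h library). Snn and Glrx, the latter a glutaredoxin, rose in WT, to 7.68 and 7.79 and to 16.4 and 16.4 RPKM, and ended in Zn4 at 1.18 and 2.28 and at 3.11 and 5.36.

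The 12 h libraries gave a measurement of the same genes at another time. They also entered the spread estimate behind the main calls, so the calls compared here are not independent. Of the 494 genes called higher, 182 (36.8%) were also called higher in Zn4 than WT at 12 h and 14 (2.83%) lower, against 4.85% and 8.28% of all tested genes. Of the 554 called lower, 247 (44.6%) were lower at 12 h and 35 (6.32%) higher. Gained genes were higher at 12 h in 62 of 121 (51.2%) and genes not gained were lower in 34 of 70 (48.6%). Held genes were called higher at 12 h in 10 of 43 (23.3%), the lowest share of the 4 classes in the direction of the 24 h difference. Of 4 libraries at 12 h, 3 carried Y-linked transcripts although all were labelled female, and the part of this in the 12 h values was not tested.

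The Zn4 24 h libraries differed from each other in a way that followed the genotype difference. The first was above the second in 378 of the 494 genes called higher (76.5%) and in 99 of the 554 called lower (17.9%), against 5475 of all 12726 tested genes (43.0%). In the other 3 groups of the comparison the first library was above the second in 46.8% to 54.9% of called genes. Among the 43 held genes it was the higher of the Zn4 pair in 39. The difference in response was thus larger in the first library than in the second over most called genes.

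The letters TGGGAA, the core that Ikaros is known to bind, were searched on both strands in the 250 bases before the start site in RefSeq sequence of GRCm38.p6. They occurred in 6510 of 27025 genes with a window (24.1%) and in 1872 of 8082 tested genes (23.2%). The share was 6 of 27 held (22.2%), 10 of 46 lost (21.7%), 30 of 85 gained (35.3%) and 12 of 46 not gained (26.1%). Over all called genes with a window it was 89 of 354 higher (25.1%) and 88 of 379 lower (23.2%), near the share of tested genes. Among named called genes with a window, 17 of 67 held the letters; the windows of Plaur, Pim1 and Gzmm held none. A match describes the letters and is not evidence of binding. The windows of 4 genes described above, shown because a cytokine, the activation marker and 2 chains of the CD3 complex are among the genes with a match, read 5′ to 3′ on the gene's strand, with TGGGAA or its reverse complement TTCCCA in capitals. Il3 lies on the minus strand at chr11:54267280-54267529, Cd44 on the minus strand at chr2:102901666-102901915, Cd3e on the minus strand at chr9:45009612-45009861 and Cd3g on the minus strand at chr9:44980432-44980681.
Il3: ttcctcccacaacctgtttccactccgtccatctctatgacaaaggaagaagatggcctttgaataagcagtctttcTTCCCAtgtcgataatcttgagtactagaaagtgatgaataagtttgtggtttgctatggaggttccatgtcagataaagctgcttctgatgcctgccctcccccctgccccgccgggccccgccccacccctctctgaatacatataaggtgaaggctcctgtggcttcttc
Cd44: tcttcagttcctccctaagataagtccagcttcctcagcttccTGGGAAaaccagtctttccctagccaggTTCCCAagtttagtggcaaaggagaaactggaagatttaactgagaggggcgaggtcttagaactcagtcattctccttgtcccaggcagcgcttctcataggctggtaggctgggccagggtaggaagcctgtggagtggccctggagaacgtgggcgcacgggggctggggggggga
Cd3e: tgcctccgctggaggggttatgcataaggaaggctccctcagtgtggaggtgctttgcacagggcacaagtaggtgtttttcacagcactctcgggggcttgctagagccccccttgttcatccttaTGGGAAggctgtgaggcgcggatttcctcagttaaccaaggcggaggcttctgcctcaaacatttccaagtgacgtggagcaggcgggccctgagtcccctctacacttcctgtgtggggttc
Cd3g: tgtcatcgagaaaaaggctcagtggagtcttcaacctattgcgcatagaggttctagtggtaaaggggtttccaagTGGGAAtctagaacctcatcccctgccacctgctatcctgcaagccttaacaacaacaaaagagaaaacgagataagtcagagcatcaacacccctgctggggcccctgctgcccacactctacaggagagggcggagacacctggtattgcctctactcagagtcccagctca
The Il3 window holds 1 match, which starts 173 bases before the start site, and the Cd44 window holds 2, which start 207 and 179 bases before it. The Cd3e match starts 123 and the Cd3g match 174 bases before the start site.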

How the data were processed

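RNA was measured with stranded mRNA libraries, read from one end, per the labels' protocols. The submitters' processing notes name TopHat2 2.0.12, HTSeq 0.6.1 and the builds mm10 and GRCm38; the annotation, the counting options and the rounding are not given in the sources used here. The authors deposited RPKM values, 12892 lines for 12885 symbols (7 symbols stood on 2 lines with equal values, and 1 was kept). In each listed gene at least 1 group mean reached 1 RPKM, the lowest being 1.0005. Whole reads and library totals were recovered from the spacing of the values: all 12885 genes came out whole within 0.02 read in every library (100%).

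Values were tested as log2(RPKM + 1) for genes that reached 1 RPKM in 2 or more libraries, with limma 3.58.1 in R 4.3.3: a mean for each of 6 groups over all 12 libraries, which share the spread estimate (6 residual and 3.31 prior degrees of freedom), empirical Bayes with a mean trend, and Benjamini-Hochberg adjustment over all genes within a comparison. All comparisons share libraries, so agreement between them is not independent. Named were the 5 genes given with the comparison, the 12 largest called differences in each direction, up to 6 genes per class, up to 4 called genes per list and a few fixed names, 92 genes in all. The members, classes and lists were chosen with earlier results of these data known. The 5 given genes are members of the lists and count in them, and some genes stand in several lists. Alternatives were the pseudocount (0.1), the filter (none, 5 RPKM), quantile and median-ratio scaling, robust shrinkage, the comparison's libraries alone, replicate blocks, limma-voom on recovered reads, and each library left out. The steps were tested on simulated data, in which 7 of 12607 genes were called falsely. Unlike the real data, these had a spread independent between libraries and no genotype difference at rest, so the false calls here may be more. Figures were drawn with matplotlib 3.10.9. One gene is not reported here.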

Additional observations from a re-analysis of the deposited data

Results flagged for a closer look

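The test of the difference between genotypes in the 0 to 24 h response called 1048 genes. In 76 of them each genotype's own response was called and the directions were opposite. Examples are Ndrg1 (difference 3.89), Lmna (3.63) and Rhob (2.61), which fell in WT and rose in Zn4, and Gm1966 (-2.26), Gbp6 (-1.71) and Cd3e (-0.95), which rose in WT and fell in Zn4. Lmna, Rhob and Cd3e lost the call without either WT 24 h library, and Gm1966 belongs to a family of interferon-inducible GTPase copies among which reads may be shared.

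Y-linked transcripts summed to 38.9 RPKM in the first WT 12 h library and to 43.4 and 21 RPKM in the first and second Zn4 12 h libraries. All were labelled female, and the 12 h libraries enter the spread estimate of every comparison. In the 8 libraries of 0 h and 24 h they summed to at most 0.0209 RPKM, and Xist lay between 27.2 and 82.7 RPKM. The second WT 12 h library had a Y-linked sum of 0.00198 RPKM. Xist at 12 h was at 0.0023 and 52.6 RPKM in the first and second WT libraries and at 0.0258 and 24.3 in those of Zn4. The WT libraries at 12 h thus came from different mice, and the second Zn4 library held transcripts of both sexes. The first Zn4 library at 12 h nearly lacked the Xist seen in the second, so the mice behind these 2 also differed in part. Whether cells of several mice were pooled was not tested. For the 0 h and 24 h libraries these values do not separate mice.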

How the results depend on the processing

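Of 88 named genes called, 34 kept the call under each alternative run for them (18 or 19 a gene), and 226 of 1662 gene-by-alternative tests lost it. The 3 values that changed sign were H2-Ob (-2.53 in the count-based fit), Ikzf1 (0.038 without the first WT 0 h library, lowest -0.295 without the second) and Myc (0.020 without the second WT 0 h library, lowest -1.21 without the first, where limma called it at an adjusted p of 0.0103); the cause was not tested. Requiring a 2-fold change left 488 genes for the difference in response (249 higher, 239 lower), 4751 for the WT and 4864 for the Zn4 response, and 250, 475 and 649 between genotypes at 0, 12 and 24 h. With a pseudocount of 0.1, gained genes numbered 68. With a filter at 5 RPKM, which tests fewer genes, lost, gained and not gained genes numbered 49, 54 and 45. With the comparison's libraries alone, which leaves fewer degrees of freedom, 550 genes were called (244 higher, 306 lower), with 26 held, 51 lost and 76 gained, and 112 between genotypes at 0 h. In the count-based fit 308 genes were higher and 46 gained. Leaving out each library gave 325 to 1524 genes (167 to 709 higher, 156 to 815 lower), 8355 to 9007 in WT, 8784 to 9057 in Zn4, 437 to 607, 743 to 1105 and 1061 to 2591 between genotypes at 0, 12 and 24 h, and 21 to 78 held, 31 to 110 lost, 59 to 172 gained and 32 to 107 not gained. The lowest counts for the difference in response, its classes, the WT response and the genotypes at 24 h came without a WT 24 h library. Deviations of same-numbered libraries correlated at 0.61 between the 0 h groups and at -0.115 to 0.192 elsewhere, so the numbers go together at 0 h and were not taken to pair the samples throughout. A replicate block shared by all groups gave 1098 genes and one within genotype 802, with 340 between genotypes at 0 h and 1081 at 12 h. A replicate block at each time point, chosen after seeing the data, gave 2029 (989 higher, 1040 lower, 65 held). Depth limits genes near 1 RPKM, whose differences are damped on this scale.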

Other observations

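Some called genes sat side by side. Of 12055 tested genes placed on GENCODE M21 (GRCm38), 12033 pairs were next to each other, and 102 pairs were called in the same direction against 19 in opposite directions. Runs of 3 or more neighbours called the same way numbered 20 and held 64 genes. On the lower side they included Gbp8, Gbp9, Gbp4 and Gbp6 on chromosome 5 and Trbv12-2, Trbv13-2, Trbv13-3 and Trbv14 on chromosome 6, between positions 41118851 and 41135616. On the higher side H2-Q5, H2-Q6 and H2-Q7, class Ib histocompatibility genes on chromosome 17, and Atf4, Rps19bp1 and Enthd1 on chromosome 15 formed runs. Members of the Gbp, Trbv and H2-Q runs resemble each other in sequence, and the part of shared reads was not tested. Rpl10a-ps2, Gm9745 and Idi2, which adjoin on chromosome 13, formed a higher run, with Idi2 at 0.512 and 0.298 RPKM in WT and 17.4 and 9.95 in Zn4 at 24 h.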
